A study of Arabidopsis thaliana with 9 samples.

Results

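Leaves of wild type Arabidopsis thaliana (Columbia) exposed to a low ratio of red to far-red light (low R:FR) from either of 2 sources were compared, as 6 libraries together, with leaves of weed-free plants (3 libraries). The 3 biological low R:FR libraries came from rosettes grown beside a grass mix used as a surrogate weed, whose leaves reflected far-red light, and the 3 artificial low R:FR libraries came from rosettes under far-red diodes. Both low R:FR groups had been grown at a ratio of 1.4 for 3 weeks and were then held at 0.3 for 1 week, whereas the weed-free plants stayed at 1.4 throughout. Plants were 4 weeks old at harvest, days and nights were of equal length, and each library was made from leaves pooled from 3 plants. The study's text places the weed and the diodes in separate growth chambers, with the weed-free plants behind a divider from the weed, so that chamber and source cannot be told apart. The study's text gives the replicates as 3 independent experiments, without saying that equal replicate numbers mark the same experiment, and the labels do not say so either. The time of day of harvest was not given in the sources used here.

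A gene was taken as shared by both sources when its 6 low R:FR values all lay above, or all lay below, the 3 weed-free values, in TPM, a transcript level scaled to gene length and to a fixed sum per library. Of 17784 genes with at least 1 TPM in at least 3 libraries, 378 lay above (2.13%) and 143 lay below (0.804%), 521 in all (2.93%). With the log2 values of every library shifted to a common median, which moved the median difference between biological and artificial low R:FR over all genes by more than 0.1 (0.15 as deposited, -0.05 after the shift), the split became 385 above and 406 below, so that the share of shared genes lying above was 72.6% as deposited and 48.7% after the shift. The excess of higher over lower genes therefore depended on the scaling.

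Plants read the red to far-red ratio through phytochromes, photoreceptors that red light switches on and far-red light switches off. Neighbours absorb red light and reflect far-red light, which lowers the active form of phytochrome B and releases the PHYTOCHROME INTERACTING FACTORS (PIFs), bHLH transcription factors that turn on auxin synthesis, cell wall loosening and petiole elongation. Among the genes known to be switched on soonest are HFR1 and PIL1, which encode bHLH proteins that restrain the PIFs, and ATHB2, which encodes a homeodomain-leucine zipper protein. PIFs bind DNA at the G-box, CACGTG, and at the PBE-box, CACATG or CATGTG.

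Joined with a limma test of the mean of both low R:FR sources minus weed-free (Benjamini-Hochberg adjusted over all 17784 genes, threshold 0.05), 48 shared genes were higher (0.27%) and 4 were lower (0.0225%) in low R:FR, together 0.292% of all genes. The test alone called 53 genes higher (0.298%) and 4 lower (0.0225%), together 0.321%, and at an unadjusted p under 0.05 it gave 1375 higher (7.73%) and 568 lower (3.19%). Since the rule and the test use the same contrast, the adjusted p-values of these 52 genes describe how far the values lay apart relative to the replicates and are no independent check of the rule. Log2 fold changes are on the log2(TPM + 1) scale, which understates changes of genes with few transcripts. The median of the 48 shared rises was 0.91 in log2 fold change, against 0.03 over all genes tested, and 21 of them were at least 1 in log2 fold change. The just included gene AT3G05900 had an adjusted p of 0.0495, and the just excluded gene AT4G15620, all of whose low R:FR values lay below weed-free, had 0.0524.

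The count of calls depended on single libraries. Leaving out artificial replicate 3, the pooled test called 301 genes higher and 223 lower, against 34 and 2 when artificial replicate 1 was dropped and 27 and 2 for artificial replicate 2. Leaving out biological replicate 1 gave 24 and 5, biological replicate 2 gave 51 and 6, and biological replicate 3 gave 81 and 23. Leaving out weed-free replicate 1 gave 13 and 1, weed-free replicate 2 gave 10 and 1, and weed-free replicate 3 gave 56 and 4. Without replicate 3 of every group, 973 genes were called higher and 507 lower, among them all 52 shared genes, and 2722 and 1038 genes met the rule, which is easier to meet with 4 libraries against 2. Other settings moved the count as well. A fit with no term for the source called 8 higher and 1 lower, a fit without the filter on low TPM called 13 and 2, and the shift to a common median gave 27 and 5. An edgeR test on reads recovered from the deposited count table called 1 gene higher and 1 lower of 6719, and at an unadjusted p under 0.05 it gave 321 higher and 368 lower. Of the 52 shared genes 23 were in that fit, of which none passed and 19 kept their direction. The recovered reads were a small part of the mapped reads that the study reports, so this fit was no check at equal depth.

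In each of the 9 fits that left out 1 library all 52 genes kept their direction, which the rule fixes in advance. In every such fit 9 stayed past the threshold: HFR1, PIL1, ATHB2, ST2b, SAUR22, XTH24, AT1G02350 and CYP89A9 among the rises and AT4G39925 among the falls. CYP89A9 in weed-free leaves and AT4G39925 in low R:FR are listed at 0 throughout, so that group has no spread. Both passed the filter through their higher group alone, and their calls here are no sign of stability. Others were called less often, for example IAA29 and AT1G76240 in 2 of these fits, WNK3 in 1, and PKS2, GASA1, ARR16, TIP2;1 and TINY2 in 3.

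**Figure D1:**
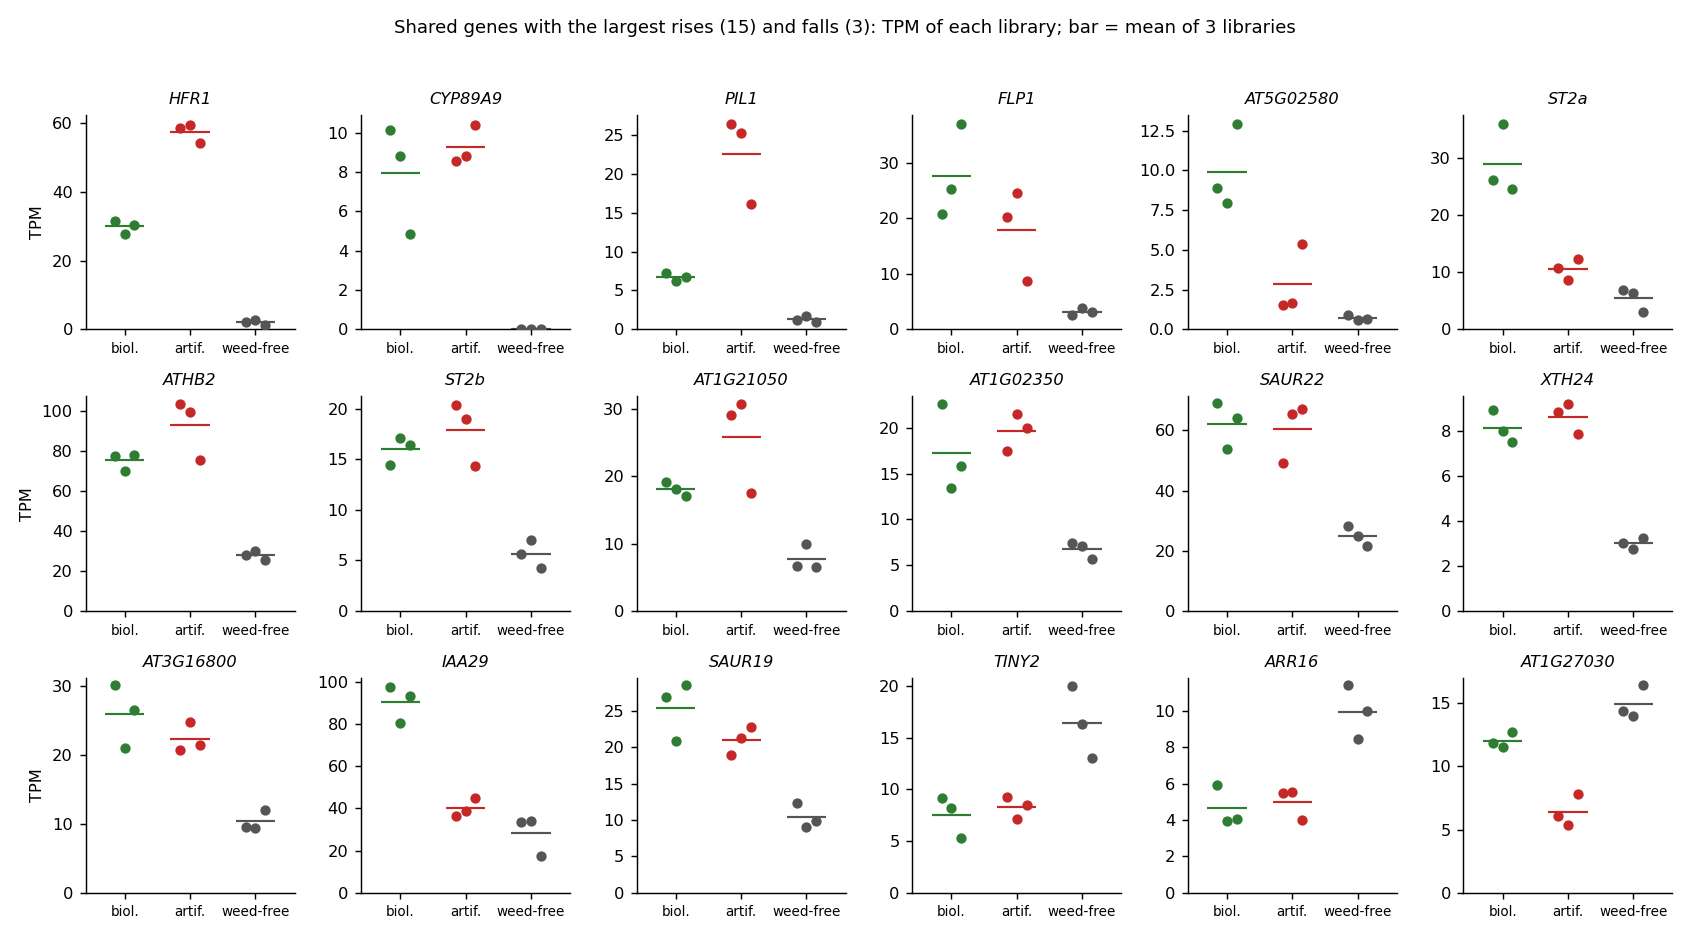
TPM in each library (points; vertical axes start at 0) for the 15 shared genes with the largest rises and the 3 with the largest falls at 5 TPM or more, with biological low R:FR at the left, artificial low R:FR in the middle and weed-free at the right; bars are means of 3 libraries. In every panel the 6 low R:FR points lie on one side of the 3 weed-free points, and PIL1, HFR1, ST2a, IAA29 and AT5G02580 stand at unequal heights in the 2 sources.

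HFR1 (AT1G02340; chromosome 1, 465616 to 467880 of TAIR10.1) had the largest rise. It stood at 31.6, 27.8 and 30.5 TPM beside the weed and at 58.7, 59.6 and 54.1 TPM under the diodes, against 2.07, 2.70 and 1.38 TPM in weed-free leaves. No low R:FR library came near the weed-free range, and the 2 sources did not overlap each other. The pooled log2 fold change was 3.83 (SE 0.13, adjusted p = 7.99e-08), and the level under the diodes exceeded that beside the weed (biological minus artificial -0.92, adjusted p = 0.00150). In bulk leaf samples such as these, fewer cells of a type and less RNA per cell cannot be told apart.

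PIL1 (AT2G46970; chromosome 2, 19295431 to 19297858) had 7.27, 6.17 and 6.67 TPM beside the weed and 26.3, 25.2 and 16.1 TPM under the diodes, against 1.18, 1.68 and 0.925 TPM in weed-free leaves. Its pooled log2 fold change was 2.57 (SE 0.17, adjusted p = 1.83e-05). Like HFR1 it was higher under the diodes (biological minus artificial -1.58, adjusted p = 0.000376). ATHB2 (AT4G16780; chromosome 4, 9449114 to 9450905) reached 77.5, 70.2 and 78.2 TPM in biological and 103, 99.7 and 75.4 TPM in artificial low R:FR, against 28.1, 30.1 and 25.6 TPM in weed-free leaves. The sources overlapped for ATHB2, whose pooled log2 fold change was 1.54 (SE 0.12, adjusted p = 0.000113), with an interval of -0.59 to 0.02 for biological minus artificial. These 3 were the members past the test among 27 transcription factors and cofactors of shade avoidance that were measured (0.298% of all genes were called higher). None was called lower in that test, and the median of the list was 0.30. Next in that list came HAT1, a close relative of ATHB2, with 34.0, 27.9 and 35.4 TPM in biological and 19.8, 27.8 and 25.9 TPM in artificial low R:FR against 16.8, 17.8 and 19.1 TPM in weed-free leaves (log2 fold change 0.62, adjusted p = 0.0834).

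PHYB, which encodes the photoreceptor phytochrome B itself (AT2G18790; chromosome 2, 8139756 at its start), was also a shared rise. It had 23.2, 16.8 and 21.5 TPM in biological and 24.6, 27.0 and 26.0 TPM in artificial low R:FR, against 11.3, 11.2 and 13.8 TPM in weed-free leaves (log2 fold change 0.88, SE 0.12, adjusted p = 0.0144). PKS2, a substrate of phytochrome kinase activity that takes part in phototropism, stood at 48.6, 46.9 and 51.9 TPM in biological and 47.7, 52.6 and 45.7 TPM in artificial low R:FR, against 31.1, 32.7 and 24.2 TPM in weed-free leaves (0.73, SE 0.11, adjusted p = 0.0255). For PKS2 the 2 sources had nearly the same mean, with an interval of -0.28 to 0.30 for their log2 difference. PHYB and PKS2 were the members called among 18 photoreceptors and partners (0.298% of all genes were called higher).

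The reference genome was searched for the G-box and the PBE-box on both strands in the 300 bases before the start of each gene. A G-box was present for 5 of the 48 shared rises (10.4%) and for 7.79% of 17593 genes tested, a PBE-box for 10 of 48 (20.8%) and for 12.7%, and neither for the 4 shared falls. No window of HFR1, PIL1 or ATHB2 held either motif, which says only that these letters are not in those 300 bases. The share of shared rises with a G-box was near that of all genes tested, and binding by PIFs was not tested. The windows of the 3 shared rises of largest fold change that hold a G-box are printed 5′ to 3′ on the strand of the gene, with the G-box in capitals. The coordinates are chr2:8139456-8139755 (plus strand) for PHYB, chr1:28603933-28604232 (minus) for AT1G76240, a protein of unknown function, and chr2:17649063-17649362 (minus) for BZIP34, a leucine zipper transcription factor.
PHYB: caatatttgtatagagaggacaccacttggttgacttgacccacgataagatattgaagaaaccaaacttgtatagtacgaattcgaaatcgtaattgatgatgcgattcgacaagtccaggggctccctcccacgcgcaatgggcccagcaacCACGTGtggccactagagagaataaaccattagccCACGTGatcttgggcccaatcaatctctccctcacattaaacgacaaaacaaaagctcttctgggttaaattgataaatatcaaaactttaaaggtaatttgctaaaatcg
AT1G76240: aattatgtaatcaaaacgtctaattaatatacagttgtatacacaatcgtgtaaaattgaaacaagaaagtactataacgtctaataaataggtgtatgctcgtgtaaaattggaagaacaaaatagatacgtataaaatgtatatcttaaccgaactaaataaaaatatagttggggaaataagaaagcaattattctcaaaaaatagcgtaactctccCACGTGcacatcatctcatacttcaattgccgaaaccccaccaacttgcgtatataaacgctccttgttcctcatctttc
BZIP34: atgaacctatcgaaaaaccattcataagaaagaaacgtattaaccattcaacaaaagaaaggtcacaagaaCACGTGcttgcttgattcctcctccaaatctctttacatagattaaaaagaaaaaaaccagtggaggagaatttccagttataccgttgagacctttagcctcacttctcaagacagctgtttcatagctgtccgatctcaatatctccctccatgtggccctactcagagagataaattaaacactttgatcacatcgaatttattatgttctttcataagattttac

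PHYB held G-boxes that begin 146 and 111 bases before the gene start, AT1G76240 one at 80 and BZIP34 one at 229. AT1G76240 and BZIP34 rose by 0.81 and 0.79 in pooled log2 fold change (adjusted p = 0.0354 and 0.0476). Another shared rise with G-boxes was BIM2, which encodes a bHLH partner of the brassinosteroid factor BES1 and held 4 of them.

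Auxin carries the shade signal to growing cells, and 1 of the 24 auxin genes measured passed the pooled test (0.298% of all genes were called higher). IAA29, an Aux/IAA repressor that auxin and shade induce, stood at 97.7, 80.5 and 93.3 TPM in biological and 36.6, 38.7 and 45.0 TPM in artificial low R:FR, against 33.3, 33.8 and 17.5 TPM in weed-free leaves. The artificial libraries lay close above the weed-free ones, and the sources differed (pooled log2 fold change 1.12, adjusted p = 0.0403, and biological minus artificial 1.16, adjusted p = 0.00293). Under the diodes alone IAA29 was not called against weed-free in limma (0.54, adjusted p = 0.189). The 24 genes had a median of 0.33, and 4 of them lay above weed-free by the rule (2.13% of all genes). Against weed-free, 12 of the 24 were called higher beside the weed (6.2% of all genes). Under the diodes 1 was called higher (2.53% of all genes, so near the background) and 1 lower (1.24% of all genes). These 2 comparisons share their weed-free libraries. The gene called lower was the auxin synthesis gene TAA1 (artificial minus weed-free -0.84, adjusted p = 0.0103). It had 2.71, 2.91 and 2.56 TPM in biological and 1.577, 1.305 and 1.519 TPM in artificial low R:FR, against 3.68, 3.87 and 2.78 TPM in weed-free leaves. The pooled log2 fold change of TAA1 was -0.54 (adjusted p = 0.112). Without reaching the threshold, IAA2 had 134, 122 and 159 TPM in biological and 80.9, 97.3 and 81.6 TPM in artificial low R:FR, against 64.1, 66.2 and 80.1 TPM in weed-free leaves (log2 fold change 0.63, adjusted p = 0.0603), and the auxin efflux carrier gene PIN3 had 15.4, 9.33 and 12.6 TPM in biological and 11.3, 12.8 and 8.51 TPM in artificial low R:FR, against 5.46, 5.40 and 7.21 TPM (0.83, adjusted p = 0.0777). In the reads recovered from the count table IAA2 had the opposite sign (-0.21).

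The SAUR genes encode small proteins that hold back a class of PP2C phosphatases and so keep the plasma membrane proton pump active, which acidifies and loosens the wall. A cluster of 6 of them on chromosome 5, SAUR19, SAUR20, AT5G18030 (SAUR21 among the RefSeq synonyms), SAUR22, SAUR23 and SAUR24, lies between positions 5962773 and 5984308, and all 6 were shared rises with pooled log2 fold changes of 0.87 to 1.27. SAUR22 led with 69.0, 53.8 and 64.2 TPM in biological and 49.3, 65.4 and 67.2 TPM in artificial low R:FR, against 28.2, 24.8 and 21.6 TPM in weed-free leaves (1.27, SE 0.14, adjusted p = 0.00212). SAUR19 had 26.9, 20.9 and 28.5 TPM in biological and 18.98, 21.2 and 22.7 TPM in artificial low R:FR, against 12.4, 9.01 and 9.93 TPM in weed-free leaves (1.08, SE 0.13, adjusted p = 0.00698). SAUR20, AT5G18030 and SAUR24 stood higher under the diodes (biological minus artificial -0.63, -0.55 and -0.45, adjusted p = 0.0183, 0.0274 and 0.0320), whereas no difference between the sources was called for the other 3. Of the 4 other genes measured between them, AT5G18040, AT5G18065 and DRT101 had pooled log2 fold changes of 0.01, 0.15 and 0.02 and overlapping groups. The remaining one, the long non-coding RNA gene AT5G02865 between SAUR20 and AT5G18030, had 5.59, 2.78 and 3.26 TPM in biological and 7.84, 11.2 and 6.35 TPM in artificial low R:FR, against 2.07, 2.90 and 2.17 TPM in weed-free leaves (0.98, adjusted p = 0.0868), with 1 biological library inside the weed-free range. The SAUR sequences are near-identical, so that the deposited values could split reads between them in a way that is not known, and SAUR23 had a log2 fold change of -0.069 in the recovered reads.

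**Figure D2:**
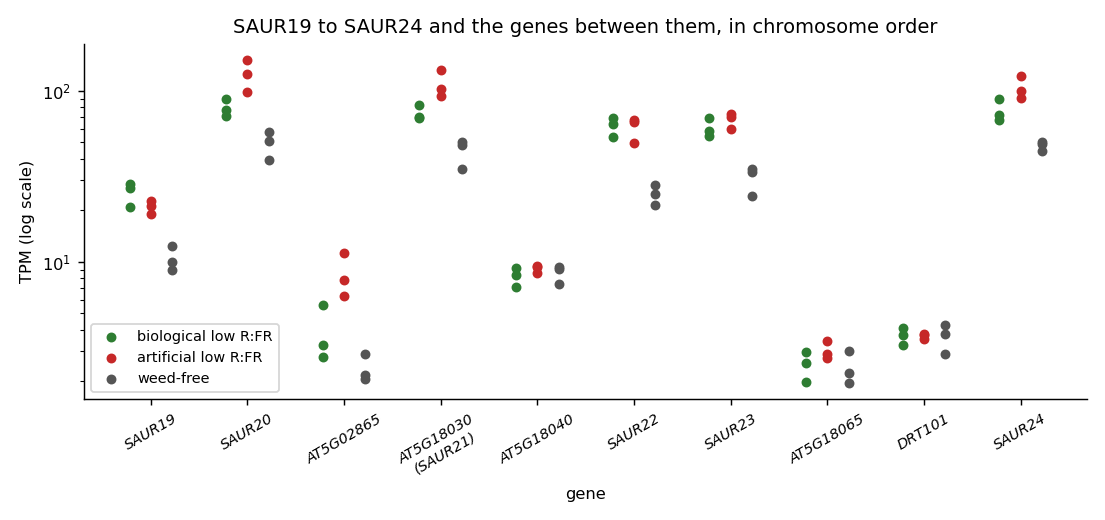
TPM on a log scale in each library for the 10 genes measured from SAUR19 to SAUR24, in chromosome order, with the weed, the diodes and weed-free from left to right at each gene. The 6 SAUR genes stand above weed-free in both sources, AT5G18040, AT5G18065 and DRT101, at log2 fold changes of 0.01 to 0.15, do not separate, and AT5G02865 stands above weed-free under the diodes.

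Over all SAUR genes named in the reference, a set chosen after the values were seen, 6 of 15 were called higher and 10 lay above weed-free by the rule. Over all genes tested these shares were 0.298% and 2.13%. The call outside the cluster was SAUR9. SAUR9 had 7.40, 6.69 and 6.31 TPM in biological and 6.15, 7.81 and 7.85 TPM in artificial low R:FR, against 2.56, 3.26 and 4.57 TPM in weed-free leaves (0.87, adjusted p = 0.0394). AT5G18030 carries no SAUR name in the reference and is not among the 15. A rise was also found for AT3G16800, which encodes a member of the PP2C family, with 30.1, 21.0 and 26.5 TPM in biological and 20.7, 24.8 and 21.5 TPM in artificial low R:FR, against 9.62, 9.41 and 12.0 TPM in weed-free leaves (1.14, SE 0.13, adjusted p = 0.00463).

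Xyloglucan endotransglucosylase/hydrolases (XTHs) cut and rejoin the xyloglucan tethers of the cell wall. XTH24 stood at 8.93, 7.99 and 7.49 TPM in biological and 8.82, 9.20 and 7.86 TPM in artificial low R:FR, against 3.04, 2.77 and 3.25 TPM in weed-free leaves. Its pooled log2 fold change was 1.22 (SE 0.11, adjusted p = 0.000460), and the interval of the difference between the sources ran from -0.35 to 0.20. EXGT-A3, another XTH, stood at 43.2, 31.1 and 38.0 TPM in biological and 21.6, 29.6 and 22.04 TPM in artificial low R:FR, against 13.1, 13.1 and 16.8 TPM in weed-free leaves (1.02, adjusted p = 0.0152). XTH6 rose by 0.92 (adjusted p = 0.0385). These were the 3 calls among 16 XTH genes (0.298% of all genes were called higher), again a set chosen after the values were seen. Their median was 0.52, and none was called lower in the pooled test. XTH31 went the other way, with a pooled log2 fold change of -0.74 (adjusted p = 0.394). It was called lower beside the weed (-1.33, adjusted p = 0.0388). In the list of 13 cell wall expansion genes, which holds expansins and some of the same XTHs, none passed the pooled test. The median was 0.34 and 6 were higher at an unadjusted p under 0.05 (7.73% of all genes).

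The 2 neighbouring sulfotransferase genes ST2a and ST2b on chromosome 5 both rose. The enzyme of ST2a sulfates hydroxylated jasmonate, which removes it from the pool that can become active, while ST2b encodes a close relative without that activity in vitro. ST2a (2174668 to 2176446) stood at 26.1, 36.0 and 24.6 TPM in biological and 10.7, 8.60 and 12.3 TPM in artificial low R:FR, against 6.94, 6.41 and 3.09 TPM in weed-free leaves (pooled log2 fold change 1.56, SE 0.22, adjusted p = 0.0166). The rise was larger beside the weed (biological minus artificial 1.37, adjusted p = 0.00273). Under the diodes alone ST2a was not called against weed-free in limma (0.88, adjusted p = 0.0787). ST2b (2171367 to 2173015) had 14.5, 17.1 and 16.4 TPM in biological and 20.4, 18.99 and 14.3 TPM in artificial low R:FR, against 5.65, 6.98 and 4.22 TPM in weed-free leaves (1.45, SE 0.15, adjusted p = 0.00209), with no call between the sources and an interval of -0.53 to 0.24. As close paralogs the pair may share reads. They were the calls among 5 measured genes of jasmonate inactivation (0.298% of all genes were called higher). Of 20 genes of jasmonate synthesis and response none was called, and AOC2, which encodes an allene oxide cyclase of jasmonate synthesis, lay below weed-free in all 6 libraries without passing the test (135, 169 and 137 TPM in biological and 178, 161 and 194 TPM in artificial low R:FR, against 219, 219 and 256 TPM; log2 fold change -0.52, adjusted p = 0.109).

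Other hormone genes contributed single members. GASA1, a gibberellin-regulated gene linked to cell elongation, was the call among 20 gibberellin and brassinosteroid genes (0.298% of all genes were called higher), with 102, 104 and 80.2 TPM in biological and 78.3, 96.9 and 95.4 TPM in artificial low R:FR, against 59.1, 54.0 and 53.0 TPM in weed-free leaves (0.73, SE 0.12, adjusted p = 0.0312). BEH1 and BIM2, which encode a homologue and a partner of the brassinosteroid factors BES1 and BZR1, are outside that list and rose by 0.64 and 0.57 (adjusted p = 0.0459 and 0.0403). The BIM2 locus overlaps a gene on the other strand, and since the strand setting of the TPM tables is not given, reads of the 2 cannot be told apart. In the recovered reads BIM2 had the opposite sign (-0.11). ARR16, a type-A response regulator that cytokinin induces, was the call among 17 cytokinin and ethylene genes and was lower (0.0225% of all genes were called lower), at 5.96, 3.97 and 4.07 TPM in biological and 5.47, 5.55 and 3.98 TPM in artificial low R:FR, against 11.4, 8.44 and 10.03 TPM in weed-free leaves (-0.92, SE 0.15, adjusted p = 0.0354).

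The other falls were few. TINY2, which encodes an AP2/ERF transcription factor of the DREB subfamily, stood at 9.15, 8.21 and 5.34 TPM in biological and 9.31, 7.12 and 8.49 TPM in artificial low R:FR, against 20.03, 16.3 and 13.02 TPM in weed-free leaves (-0.96, SE 0.17, adjusted p = 0.0459). AT1G27030, an uncharacterised gene, had 11.8, 11.6 and 12.7 TPM in biological and 6.05, 5.38 and 7.79 TPM in artificial low R:FR, against 14.3, 14.0 and 16.4 TPM in weed-free leaves, and its fall was larger under the diodes (biological minus artificial 0.83, adjusted p = 0.00156). AT4G39925, annotated as an AT hook protein, is listed at 0 in all 6 low R:FR libraries against 4.63, 4.195 and 4.51 TPM in weed-free leaves. It passed the filter through its weed-free libraries alone, is under the 5 TPM set for named genes and is given because it is the remaining fall.

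A listed 0 need not mean that reads were missing. In the TPM values, 41 genes are listed at 0 in at least 1 library while at 5 TPM or more in every other. CYP89A9, a cytochrome P450 gene of chlorophyll breakdown, is among the 48 shared rises, passed the filter through its low R:FR libraries, and lies just outside that count, with 10.13, 8.81 and 4.86 TPM in biological and 8.58, 8.81 and 10.4 TPM in artificial low R:FR against a listed 0 in all 3 weed-free libraries. In the separate count table it had 50, 40 and 63 reads in biological low R:FR, 108, 53 and 125 reads in artificial low R:FR and 27, 16 and 45 reads in weed-free leaves. Scaled to the library total, as RPM, these are 21.6, 18.4 and 19.03 in biological and 21.5, 22.8 and 27.5 in artificial low R:FR, against 13.1, 9.51 and 15.6 in weed-free leaves. All 6 low R:FR libraries lay above weed-free there too, with an edgeR log2 fold change of 0.72 that was not called (adjusted p = 0.249), and no fold is given from the TPM values.

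Several of the largest rises were in genes outside the lists. FLP1, which encodes a small protein related to FLOWERING PROMOTING FACTOR 1, had 20.8, 25.2 and 36.9 TPM in biological and 20.2, 24.4 and 8.69 TPM in artificial low R:FR, against 2.53, 3.88 and 3.18 TPM in weed-free leaves (2.4, SE 0.31, adjusted p = 0.0194). One artificial library lay well below the other low R:FR values and still above weed-free. AT5G02580, which the reference names as an argininosuccinate lyase, had 8.87, 7.98 and 12.9 TPM in biological and 1.502, 1.63 and 5.34 TPM in artificial low R:FR, against 0.869, 0.604 and 0.667 TPM in weed-free leaves, so that most of its rise lay beside the weed (1.83, adjusted p = 0.0385; biological minus artificial 1.63, adjusted p = 0.00492). AT1G21050, of the MIZU-KUSSEI-like family, had 19.2, 18.16 and 17.2 TPM in biological and 29.2, 30.7 and 17.58 TPM in artificial low R:FR, against 6.70, 10.03 and 6.58 TPM in weed-free leaves (1.37, SE 0.18, adjusted p = 0.0102). AT1G02350, named as protoporphyrinogen oxidase-like, which neighbours HFR1 on chromosome 1 (469818 to 470693), had 22.6, 13.4 and 15.9 TPM in biological and 17.5, 21.5 and 19.9 TPM in artificial low R:FR, against 7.48, 7.05 and 5.72 TPM in weed-free leaves (1.31, SE 0.16, adjusted p = 0.00476). In all, 8 of the 52 shared genes lay next to another shared gene among the genes tested: HFR1 with AT1G02350, ST2a with ST2b, SAUR19 with SAUR20 and SAUR22 with SAUR23, while AT5G02865 separates SAUR20 from AT5G18030.

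Water channels were among the remaining lists with calls. Of 11 aquaporin genes 2 were called higher (0.298% of all genes), 4 lay above weed-free by the rule (2.13% of all genes) and the median was 0.52. TIP2;1, which encodes a channel of the vacuole membrane, stood at 74.3, 57.6 and 93.9 TPM in biological and 40.5, 51.5 and 43.5 TPM in artificial low R:FR, against 31.9, 33.4 and 33.2 TPM in weed-free leaves (0.79, adjusted p = 0.0490). It overlaps 2 genes on the other strand, and in the recovered reads its sign was the opposite (-0.17). PIP1;5, of the plasma membrane, had 60.2, 44.5 and 53.5 TPM in biological and 17.2, 24.5 and 25.3 TPM in artificial low R:FR, against 18.6, 19.3 and 20.7 TPM in weed-free leaves (0.77, adjusted p = 0.0490). An artificial library lay below weed-free for PIP1;5, so it was called without meeting the rule, as were PDF1.3, UPB1, CAX3 and CER4, the other 4 called genes that were not shared. PIP1;2 and PIP2;7 met the rule with adjusted p-values of 0.123 and 0.0637.

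**Figure D3:**
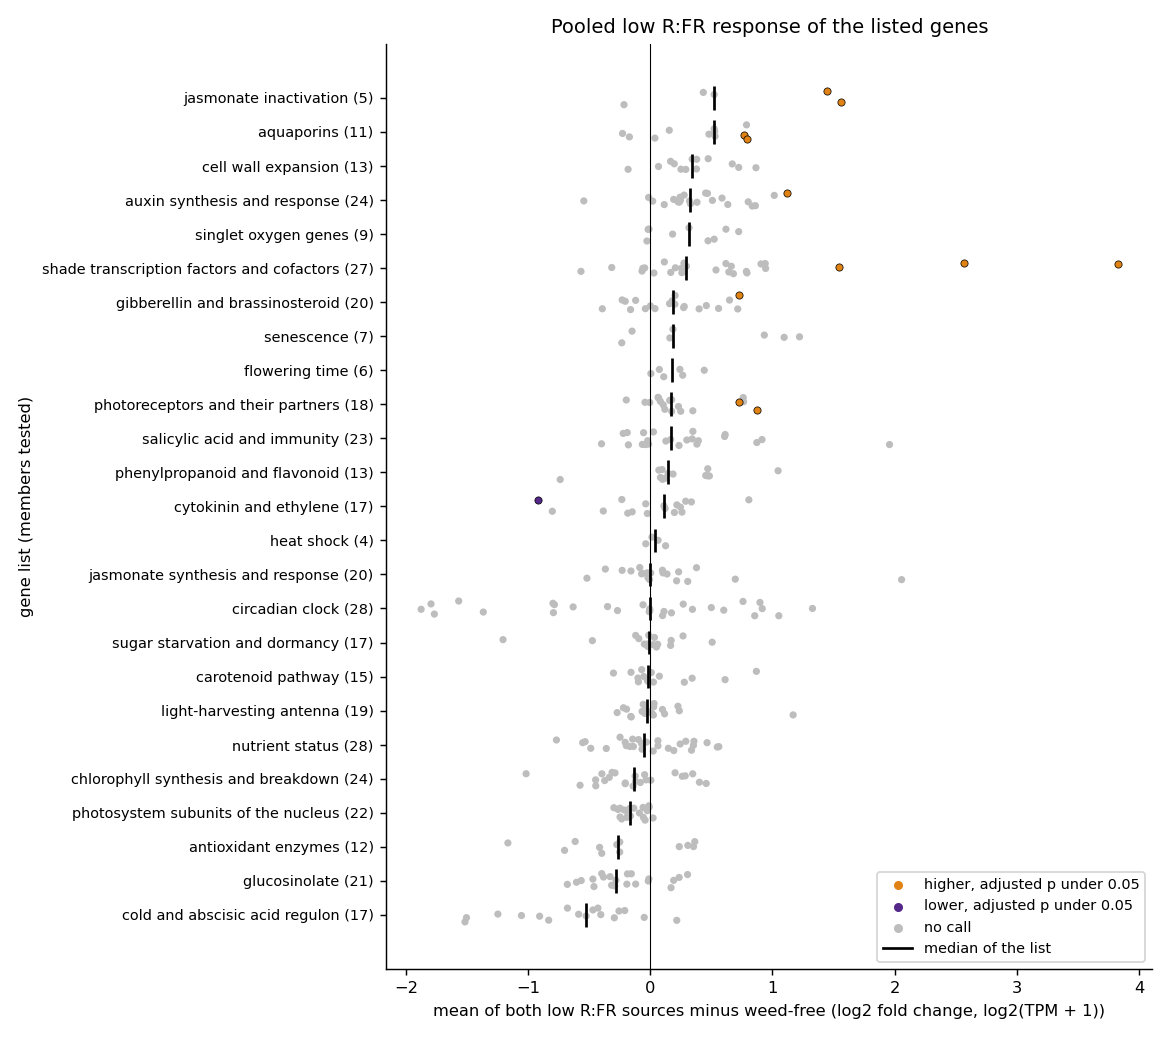
Pooled log2 fold change (mean of both low R:FR sources minus weed-free, horizontal) of every measured member of the 25 gene lists, sorted by list median (black bars), with genes past the test in orange (higher) and purple (lower). Jasmonate inactivation and aquaporins have the highest medians, 0.52 each, and the cold and abscisic acid regulon the lowest, -0.53, with no member called.

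In the 25 lists together, 11 of 420 measured entries were called higher and 1 lower, against 0.298% and 0.0225% of all genes tested. The lists were chosen with earlier results of these data known, so these counts are no test of the lists. In 18 of the 25 lists no member was called, among them the antenna, photosystem, chlorophyll, carotenoid, flavonoid, glucosinolate, salicylic acid, heat shock and clock lists. Of 9 singlet oxygen genes none passed, and PUB25, which encodes a U-box ubiquitin ligase, came nearest, with 12.5, 10.4 and 10.5 TPM in biological and 8.67, 10.3 and 8.32 TPM in artificial low R:FR, against 5.78, 5.80 and 7.04 TPM in weed-free leaves (0.62, adjusted p = 0.0574). Of 12 antioxidant enzymes none passed and 2 lay below weed-free in all 6 libraries (0.804% of all genes). One of them was the catalase gene CAT1, with 28.4, 37.5 and 34.5 TPM in biological and 14.7, 14.4 and 33.3 TPM in artificial low R:FR, against 39.5, 38.7 and 39.6 TPM in weed-free leaves (-0.61, adjusted p = 0.385). Without artificial replicate 3 the adjusted p of CAT1 was 0.00239, at a log2 fold change of -0.81. No other fit that left out 1 library called CAT1. Of 28 clock genes RVE4, a MYB factor of the morning loop, met the rule (2.13% of all genes lay above), with 46.1, 37.0 and 25.4 TPM in biological and 34.6, 40.6 and 27.0 TPM in artificial low R:FR, against 20.9, 21.6 and 17.5 TPM in weed-free leaves (0.76, adjusted p = 0.136). Its adjusted p was 0.0316 without biological replicate 3, 0.0229 without artificial replicate 3, and 0.00546 without replicate 3 of every group. No other fit that left out 1 library called RVE4.

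Sharing a direction did not mean sharing a size. Of the 48 shared rises, 10 were higher beside the weed and 9 were higher under the diodes. Over all genes tested these shares were 23.8% and 13.6% (37.4% together) in this contrast, which uses no weed-free library. Differences between the sources were thus about as common among the shared rises as among all genes tested. For the other 29 shared rises no difference was called. For 28 of these the interval of the log2 difference lay within 1 on either side of 0. The rule asks for both sources on one side of weed-free and so favours genes with like values in both, which limits what these counts show. Compared with weed-free separately, 46 of the 48 were called beside the weed (6.2% of all genes were higher, 3.37% lower and 9.57% either) and 38 under the diodes (2.53%, 1.24% and 3.77%), 36 of them in both, where the 2 comparisons share the weed-free libraries. Both comparisons enter the rule and the pooled test that chose these genes. The counts therefore follow largely from that choice and lend the rule no support. COL5, which encodes a B-box zinc finger protein, was even between the sources, with 227, 223 and 178 TPM in biological and 208, 220 and 210 TPM in artificial low R:FR, against 128, 129 and 97.7 TPM in weed-free leaves (0.84, adjusted p = 0.0166; interval of the difference -0.34 to 0.28).

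**Figure D4:**
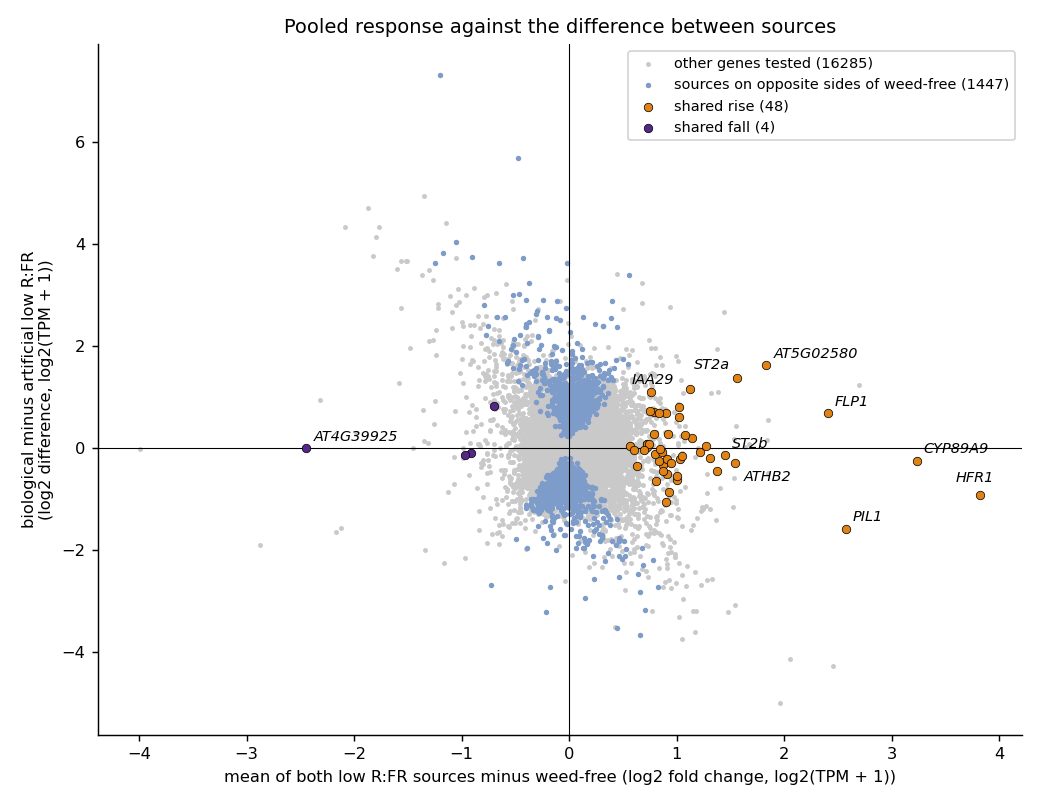
Each point is a gene, with the pooled log2 fold change against weed-free on the horizontal axis and the log2 difference biological minus artificial low R:FR on the vertical axis. The 48 shared rises (orange) and 4 shared falls (purple) spread along the horizontal axis, HFR1 farthest at 3.83, while the 1447 genes whose sources lie on opposite sides of weed-free (blue) stand above and below 0 on the vertical axis, DRMH1 highest at 7.31.

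Pooling hid a larger group. In 772 genes (4.34%) all 3 biological libraries lay above and all 3 artificial libraries below weed-free, and in 675 genes (3.8%) the order was the opposite, 1447 in all (8.14%) against the 521 that met the rule. With the libraries shifted to the same median these were 694 and 1136, so that the balance between the 2 orders turned with the scaling. The widest was DRMH1, a dormancy-associated gene, with 1923, 1932 and 2885 TPM in biological and 3.69, 2.92 and 145 TPM in artificial low R:FR, against 233, 259 and 1080 TPM in weed-free leaves (biological minus artificial 7.31, adjusted p = 0.0117; pooled -1.21, adjusted p = 0.745). DYL1, a relative of DRMH1, had 166, 152 and 241 TPM in biological and 1.39, 1.60 and 6.14 TPM in artificial low R:FR, against 23.1, 29.3 and 59.8 TPM in weed-free leaves. AT2G15960, MEE14 and the cold-induced gene KIN1 were next, with biological minus artificial differences of 4.03, 3.82 and 3.74 in log2 and pooled adjusted p-values of 0.577, 0.599 and 0.506. Of 17 cold and abscisic acid genes 9 had this pattern, as did 7 of 17 sugar starvation and dormancy genes. In DRMH1, DYL1, MEE14 and AT2G15960 the third artificial library lay several-fold above the other 2 artificial ones. Libraries numbered 3 deviated together from their group means (correlations across genes of 0.17 to 0.31 over the 3 pairs). Same-numbered pairs gave -0.03 to 0.22 for replicate 1 and 0.09 to 0.21 for replicate 2, so such a correlation was not particular to replicate 3. What sets the libraries numbered 3 apart was not tested.

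**Figure D5:**
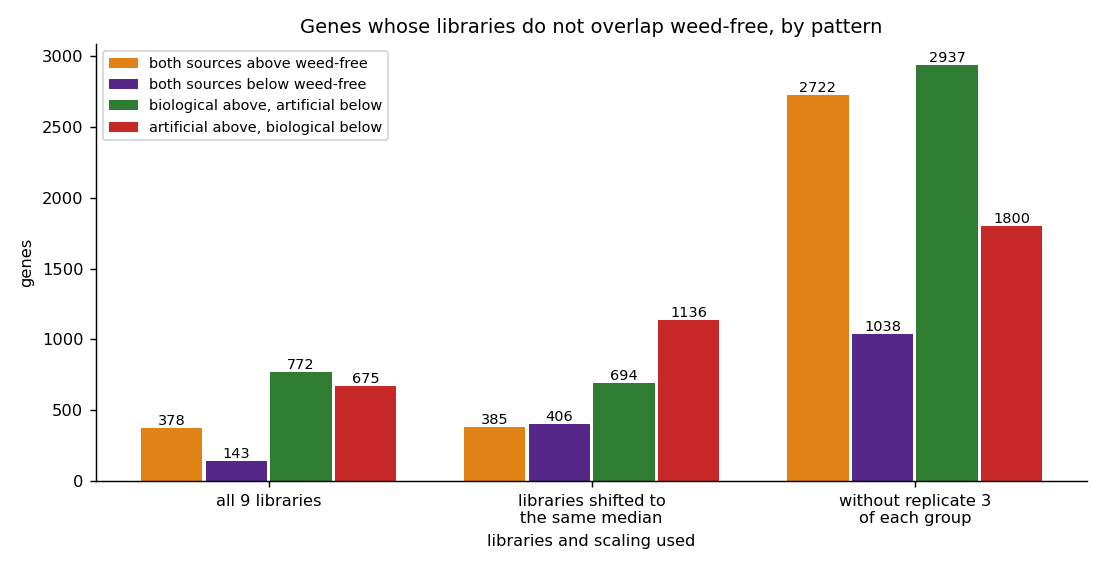
Number of genes (vertical axis) whose low R:FR libraries lie wholly above or below weed-free in both sources, or on opposite sides in the 2 sources, as deposited, after a shift of all libraries to the same median, and without replicate 3 of each group. As deposited 378 and 143 genes are shared and 772 and 675 are opposite; the shift gives 385 and 406 shared and 694 and 1136 opposite, and leaving out replicate 3 gives 2722 and 1038, with fewer libraries to separate.

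The 52 shared genes together took 0.203 to 0.235% of TPM in the low R:FR libraries and 0.103 to 0.115% in the weed-free libraries. Coverage at 1 TPM, which tracks depth, ran between 3.02 and 9.79 reads per base over the 9 libraries, and the 10 most abundant genes took 17.7 to 23.3% of TPM. Leaf mesophyll markers dominated, with summed levels of 91365 to 98569 TPM in biological and 103684 to 116553 TPM in artificial low R:FR, against 91679 to 104458 TPM in weed-free leaves. Summed guard cell markers ran from 25.3 to 35.8 TPM in biological and 26.2 to 31.5 TPM in artificial low R:FR, against 22.6 to 31.5 TPM, and those of dividing cells from 14.7 to 23.2 TPM in biological and 11.6 to 15.3 TPM in artificial low R:FR, against 16.8 to 18.5 TPM. Vascular markers summed to 55.5 to 69.9 TPM in biological and 51.9 to 53.2 TPM in artificial low R:FR, against 57.0 to 61.8 TPM. Trichome, root and flower markers stayed near 1 TPM or lower in sum, and 1 marker of each of these lists was at 0 in every library. The part of cell makeup in the shared rises was not tested.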

How the data were processed

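RNA of 9 leaf libraries was prepared with an Illumina TruSeq kit. The submitters' processing notes name Bowtie2 2.4.3, HTSeq 0.13.5 and DESeq2 1.30.1, and the gene coordinates are those of TAIR10.1. The program behind the TPM and its strand setting are not given in the sources used here. The deposited TPM values, scaled by the authors to gene length and to a fixed sum per library, were the main measure. The deposited FPKM values served as an alternative. The deposited coverage signal per base gave relative depth, since TPM keeps none. The authors' normalised count signal was turned back into whole reads, 1683076 to 5025090 per library, for an alternative edgeR test, and 100% of values came out whole in each library within a relative tolerance of 1e-06. These totals are far below the mapped reads per library that the study reports. Deposited tables of fold changes and p-values were not used.

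Genes with at least 1 TPM in at least 3 libraries were fitted as log2(TPM + 1) with limma 3.58.1 in R 4.3.3 (trended, robust variance, a mean per group, two-sided, Benjamini-Hochberg over all genes). edgeR 4.0.16 ran the quasi-likelihood test. Tested on simulated data for the pooled comparison (17784 genes), the limma fit called 77% of genes made to differ 2-fold, 94% at 4-fold and 9 genes that had been left alone, and edgeR on simulated counts (6570 genes) called 80%, 100% and 4. Only better-expressed genes were made to differ. The simulated libraries held no difference between the sources and no deviation common to same-numbered libraries. These rates therefore do not give the power in the real data. Named genes were the largest rises and falls (up to 15 each way) among shared, called genes averaging at least 5 TPM in the higher group, up to 4 members of each list by adjusted p, and the 5 widest genes on opposite sides. Other shared genes named in the text were chosen after their values were seen. The members and lists were chosen with earlier results of these data known. Alternatives were another pseudocount, other filters, other scalings, FPKM, no source term, a replicate block, libraries left out and edgeR. The promoter window of a further gene is not reported here.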

Additional observations from a re-analysis of the deposited data

Results flagged for a closer look

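The difference between biological and artificial low R:FR, tested in limma with adjustment over all genes, was called in 20 of the 52 shared genes. It was called in 37.4% of all genes tested. Higher under the diodes, as biological minus artificial log2 differences, were PIL1 (-1.58), AT1G48745 (-1.06), HFR1 (-0.92), AT2G21188 (-0.85), AT1G76240 (-0.64), SAUR20 (-0.63), AT5G18030 (-0.55), AT5G03230 (-0.52) and SAUR24 (-0.45). Higher beside the weed were AT5G02580 (1.63), ST2a (1.37), IAA29 (1.16), OFP15 (1.1), AT3G59370 (0.81), WNK3 (0.72), TIP2;1 (0.70), AT2G28400 (0.68), AT4G28240 (0.68) and EXGT-A3 (0.60). AT1G27030, a shared fall, was also higher beside the weed (0.83).

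CYP89A9 had 1 low R:FR library apart from the other 5 by Dixon's test, biological replicate 3 at 4.86 TPM. It was the only value so marked among 18 genes looked at, and about 1 group in 20 is marked by chance.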

How the results depend on the processing

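The calls of the pooled test depended on the setting. The direction of the shared genes could not change when libraries were left out, since the rule fixes it. As reported, the pooled test gave 53 higher and 4 lower, the joined rule 48 and 4, and the sources differed in 20 of the joined genes, 11 with biological and 9 with artificial low R:FR higher. With no filter on low TPM these were 13 and 2, 13 and 2, and 1 and 3. With the libraries shifted to the same median they were 27 and 5, 23 and 5, and 7 and 9, with 406 genes all below weed-free and 1136 on opposite sides with artificial above. With 2 groups and no term for the source they were 8 and 1, and 8 and 1. The replicate block gave 138 and 22, 78 and 7, and 20 and 16, and all 52 shared genes were still called. Under the block RVE4 was called as well (adjusted p = 0.0237). Same-numbered libraries correlated at -0.03 to 0.31 in their deviations from the group means, over 0.1 for all 3 pairs of artificial with weed-free but not for biological replicate 1 with either other group. The numbers were therefore not taken as pairs, and whether they mark the 3 experiments is not stated.

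Without replicate 3 of every group the pooled test gave 973 and 507, the rule 2722 and 1038, the joined rule 683 and 226, the sources differed in 212 and 274 of those, and 2937 and 1800 genes lay on opposite sides. The edgeR test gave 1 and 1. Leaving out 1 library at a time, the pooled test ranged from 10 to 301 higher and from 1 to 223 lower, the rule from 403 to 1964 above and from 157 to 384 below, and the joined rule from 10 to 163 and from 1 to 45. The difference between sources ranged from 1 to 42 and from 2 to 37, and the opposite sides from 804 to 1490 and from 709 to 1007. Fewer libraries make the rule easier to meet, and the causes of the other changes were not tested.

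In the edgeR fit 5 named genes took the opposite sign without a call: SAUR23 (-0.069), TIP2;1 (-0.17), APRL6 (-0.25), BIM2 (-0.11) and IAA2 (-0.21), and the cause was not tested. No other named gene reversed under any setting run. TPM gives no counting error, so low values carry an unknown depth limit.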
